A study of Mus musculus with 6 samples.

Results

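The mouse genome carries its Hox genes in 4 clusters, and all 39 of them, 11 Hoxa, 10 Hoxb, 9 Hoxc and 9 Hoxd genes, were rows of the count tables analysed here. They were taken by symbol (Hox, a cluster letter and a number) from the 23337 gene rows of each table. RNA was sequenced from stromal fibroblasts of the mammary gland of C57BL/KaLawRij mice aged 7 weeks, with 3 Sharpin-cpdm libraries (cpdm/cpdm, Sharpin deficient) and 3 wild-type libraries (wt/wt). Each library came from the glands of 3 pooled mice, from which cells were freed with collagenase, separated by centrifugation and cultured in serum to confluence at passage 0 with floating cells removed. The cpdm allele is a spontaneous loss-of-function mutation of Sharpin, which encodes a component of the LUBAC ubiquitin ligase, and is present in every cell of these mice, so the groups are not fibroblast-specific mutants. The labels do not say which of the paired glands were pooled. The labels number the libraries of each genotype from 1 to 3 without saying what a number marks, and values below are listed in that order.

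Hox genes encode homeodomain transcription factors that give cells of the embryo their position along the head-to-tail axis. Within a cluster the genes lie in the order of that axis: low paralogue numbers act towards the head and high numbers towards the tail, and genes with the same number in different clusters (paralogues) descend from a shared ancestor gene. Fibroblasts cultured from adult skin and other organs are known to keep a Hox pattern of their site of origin, and Hoxa9, Hoxb9 and Hoxd9 together are known to be needed for growth of the mammary gland in pregnancy.

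The homeobox, the stretch that encodes the DNA-binding homeodomain, was found in all 39 genes on GRCm38 transcripts of GENCODE vM21, each time as 180 bases in 1 exon. It shows how alike the members are and how far reads can be assigned to 1 of them. Of these, 5 are shown in the 5′ to 3′ direction of the gene, with the codons of homeodomain positions 48 to 53, in the helix that contacts DNA, in capitals. Hoxc8 (chr15:102992571-102992750, plus strand) had the highest level per kb and Hoxb8 (chr11:96284174-96284353, plus strand) is its paralogue. Hoxb9 (chr11:96274659-96274838, plus strand) had the smallest p between genotypes in same-numbered libraries, and Hoxc13 (chr15:102927210-102927389, plus strand) and Hoxd13 (chr2:74669930-74670109, plus strand) are a detected and an undetected member of 1 paralogue group.
Hoxc8: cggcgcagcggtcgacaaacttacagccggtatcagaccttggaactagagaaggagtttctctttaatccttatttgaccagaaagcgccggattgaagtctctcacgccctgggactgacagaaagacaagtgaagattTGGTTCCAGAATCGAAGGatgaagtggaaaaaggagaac
Hoxb8: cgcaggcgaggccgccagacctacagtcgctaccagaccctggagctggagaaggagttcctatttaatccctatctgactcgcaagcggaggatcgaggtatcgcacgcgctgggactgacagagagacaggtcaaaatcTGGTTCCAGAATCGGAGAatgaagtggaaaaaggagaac
Hoxb9: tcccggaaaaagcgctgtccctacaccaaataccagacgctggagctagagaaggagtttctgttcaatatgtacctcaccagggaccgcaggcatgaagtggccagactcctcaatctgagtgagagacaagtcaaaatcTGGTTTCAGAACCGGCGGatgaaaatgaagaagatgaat
Hoxc13: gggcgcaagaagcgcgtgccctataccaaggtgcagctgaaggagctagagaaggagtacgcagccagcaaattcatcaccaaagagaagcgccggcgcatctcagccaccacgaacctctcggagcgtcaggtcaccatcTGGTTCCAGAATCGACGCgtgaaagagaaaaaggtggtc
Hoxd13: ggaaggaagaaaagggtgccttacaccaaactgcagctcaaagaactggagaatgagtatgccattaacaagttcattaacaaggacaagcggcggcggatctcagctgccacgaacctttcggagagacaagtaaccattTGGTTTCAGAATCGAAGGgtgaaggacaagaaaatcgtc
The Hoxc8 homeobox shared 80% of its bases with that of Hoxb8, 63.3% with that of Hoxb9 and 53.3% with that of Hoxc13, and Hoxc13 and Hoxd13 shared 75%. Homeoboxes with the same number were 67.2% to 93.9% identical (42 pairs, median 80.6%), whereas those of 1 cluster had a median identity of 61.7% (172 pairs) and all pairs one of 61.1% (741 pairs). Identity over the homeobox did not extend to long exact matches. Of all 50-base windows along the transcripts, windows shared with another Hox gene were found 339 times in Hoxd3 (with Hoxd4), 119 times in Hoxc10 (with Hoxc5) and at most 3 times in any of Hoxa6, Hoxb4, Hoxb9 and Hoxc9. Hoxd3 and Hoxd4 also overlap the gene Gm28230 on the same strand, by 2225 and 1154 bases, and 86.3% and 42.2% of their windows were shared with another gene. Smaller overlaps on the same strand were those of Gm28308 with Hoxa2 and Hoxa3 (267 and 261 bases) and of Gm28309 with Hoxd10 and Hoxd11 (104 and 455 bases). None of these overlapping genes is a row of the count tables, and their part in the Hox counts was not tested. Counts of Hoxd3, Hoxd4, Hoxc5, Hoxc10, Hoxa2, Hoxa3, Hoxd10 and Hoxd11 are therefore less certain than the others. So are those of genes whose exons overlap an antisense gene, since the library kit does not mark the strand. The largest antisense overlaps were those of Hoxb3os, also not a row of the tables, with Hoxb3 (2250 bases) and Hoxb2 (953 bases). Smaller ones were found for genes of the Hoxa cluster, among them Hoxa3, Hoxa4 and Hoxa11. Hoxa7 shared 27% of its windows with Hoxaas3, a gene on the opposite strand that was counted as 2700086A05Rik, so its counts are less certain too.

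The libraries held between 13570649 and 15656196 counts assigned to genes, of which 4011 to 4890 fell on Hox genes. Levels are given as CPM (each count scaled to a common total of gene counts), on which 3 counts, the limit that a count of 0 allows, are 0.192 to 0.221 CPM, a limit for counting error only. Sharpin itself stood at 10.5, 9.13 and 9.51 CPM across the Sharpin-cpdm libraries and at 24.5, 25.2 and 31.2 CPM across the wild-type ones, so the groups did not overlap. Fibroblast markers were abundant in all 6 libraries, with Col1a1 at a mean of 22179 CPM, and markers of other cell types were present too. Their means ranged widely, from 3289 CPM for Acta2, of smooth muscle and myofibroblasts, and 196 CPM for the endothelial gene Cdh5 to 33.2 CPM for the epithelial gene Epcam and 0.0813 CPM for the adipocyte gene Adipoq. Skeletal muscle markers ranged from a mean of 501 CPM for Acta1 to 0.358 CPM for Pax7. The sum of the 10 listed was 2587 CPM in the wild-type library numbered 1 and 884.5 to 1390 CPM in the others. In bulk RNA, fewer cells of a type and less RNA per cell cannot be told apart.

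The fibroblast cultures, with the other cells in them, expressed a broad Hox pattern dominated by the Hoxc and Hoxb clusters and by the central paralogue numbers. A low-count filter on all genes was passed by 29 of the 39 Hox genes, 27 had a mean of at least 1 CPM, 16 of at least 5 CPM and 10 of at least 10 CPM. Summed over the 39 genes, Hox transcripts came to 296, 302 and 327 CPM across the Sharpin-cpdm libraries and to 296, 291 and 308 CPM across the wild-type ones, so the summed level was similar in all 6. To compare levels between genes, CPM was divided by exon length in kb. On this scale, in means ± SD over the 6 libraries, Hoxc held 43.1% ± 1.77 of the summed Hox level, Hoxb 37.8% ± 4.14, Hoxa 10.7% ± 1.27 and Hoxd 8.42% ± 2.10. Central numbers (4 to 8, 15 genes) held 63.3% ± 3.38, anterior numbers (1 to 3, 8 genes) 17.1% ± 2.42 and posterior numbers (9 to 13, 16 genes) 19.6% ± 3.00. By single number, groups 8 and 6 stood highest, at 32.0 ± 2.90 and 27.7 ± 1.47 CPM per kb, and from group 10 to group 11 the summed level went from 13.8 ± 4.38 to 0.490 ± 0.205 CPM per kb.

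**Figure D1:**
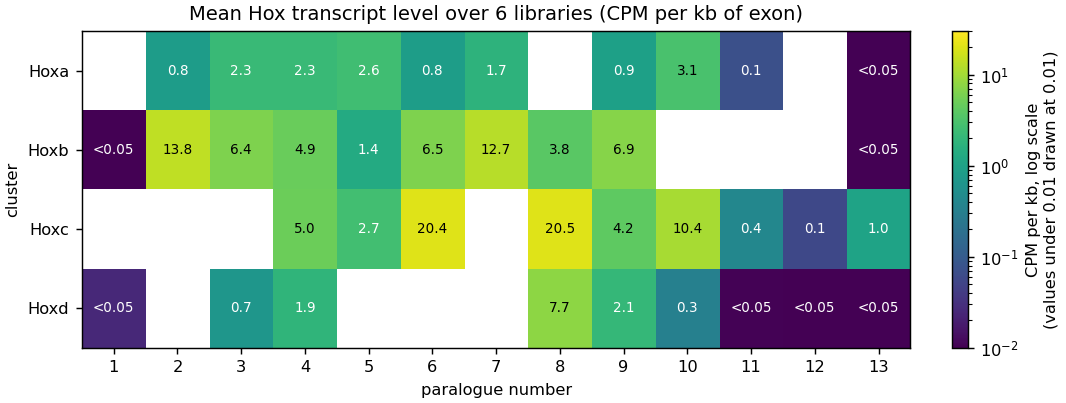
Mean level of 38 of the Hox genes over the 6 libraries, in CPM per kb of exon, by cluster (rows) and paralogue number (columns); the colour scale is logarithmic and white cells are positions without a gene or not shown. Hoxc6 and Hoxc8 (20.4 and 20.5 CPM per kb) stand highest, and past number 10 only Hoxc13 reaches 1.0.

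The Hoxc cluster lies on chromosome 15 from 102921103 to 103036852 (GRCm38, plus strand). Hoxc8 and Hoxc6, which pattern the thoracic region of the embryo, had the highest levels per kb of the Hox genes. Hoxc8 stood at 39.6, 40.7 and 43.0 CPM across the Sharpin-cpdm libraries and at 35.8, 35.8 and 34.5 CPM across the wild-type ones, and Hoxc6 at 29.0, 31.3 and 36.2 CPM and at 31.2, 30.6 and 35.5 CPM. Per kb they did not differ beyond their spread, at 20.5 ± 1.79 and 20.4 ± 1.83 CPM per kb (SD, n = 6). Hoxc10, known for its role in lumbar patterning, followed within the cluster at 10.4 ± 3.36 CPM per kb. Hoxc9 (4.16 ± 0.604), Hoxc5 (2.69 ± 0.251) and Hoxc4 (4.97 ± 1.07 CPM per kb) were lower. The tail-most genes Hoxc11 and Hoxc12 were at 0.407 and 0.0559 CPM per kb, and Hoxc12 did not pass the filter. Hoxc13, which is known from hair follicles and nails, did not continue this decline, with a mean of 1.03 ± 1.06 CPM per kb that rested mainly on 1 pair of libraries. Its values were 0.811, 5.58 and 1.00 CPM across the Sharpin-cpdm libraries and 0.953, 6.20 and 0.703 CPM across the wild-type ones. Both libraries numbered 2 thus stood above all others, whatever their genotype.

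In the Hoxb cluster (chromosome 11, 96194316 to 96368256, plus strand) all 8 genes from Hoxb2 to Hoxb9 passed the filter, whereas the end genes Hoxb1 and Hoxb13 had 1 count each over the 6 libraries together. Hoxb2, which acts in hindbrain patterning, had the highest level of the cluster, at 13.8 ± 3.13 CPM per kb, with 21.3, 29.7 and 18.7 CPM across the Sharpin-cpdm libraries and 19.2, 27.8 and 17.8 CPM across the wild-type ones. Hoxb7 stood at 18.9, 12.97 and 18.6 CPM across the Sharpin-cpdm libraries and at 16.3, 14.2 and 17.5 CPM across the wild-type ones (12.7 ± 1.86 CPM per kb). The groups overlapped for both genes, and per kb their levels were within each other's spread. Hoxb6 was at 9.06, 9.57 and 7.97 CPM across the Sharpin-cpdm libraries and 7.92, 10.2 and 6.47 CPM across the wild-type ones, or 6.46 ± 1.03 CPM per kb. It was close to Hoxb9 (6.91 ± 2.93) and Hoxb3 (6.41 ± 0.893 CPM per kb). Lower levels were seen for Hoxb4, used to expand blood stem cells (4.87 ± 0.724), for Hoxb8 (3.85 ± 0.466) and for Hoxb5 (1.35 ± 0.301 CPM per kb). The ranking depends on which exons set the length: with the exons of all annotated transcripts, a choice added after seeing the data, Hoxb2 came to 6.43 CPM per kb, below Hoxb7 at 10.6, and Hoxc8 and Hoxc6 came to 13.5 and 13.4 CPM per kb and stayed highest.

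The Hoxa cluster (chromosome 6, 52155590 to 52260880, minus strand) was expressed along most of its length at low, even levels. Hoxa10, which patterns the uterus, led it at 3.05 ± 0.882 CPM per kb, followed by Hoxa5, with known roles in lung and mammary development, at 2.57 ± 0.337. Hoxa3, needed for thymus and parathyroid, stood at 2.30 ± 0.409, Hoxa4 at 2.26 ± 0.561 and Hoxa7 at 1.74 ± 0.614 CPM per kb. Hoxa9, Hoxa6 and Hoxa2 had between 0.847 and 0.935 CPM per kb. The level of Hoxa3 came to 0.989 CPM per kb with the exons of all its transcripts. Hoxa11 did not pass the filter, with 0 to 5 counts per library, and Hoxa13 had 0 counts in all 6.

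Of the 9 Hoxd genes (chromosome 2, 74668310 to 74765142, plus strand) 4 passed the filter. Hoxd8 stood far above the rest of its cluster at 7.68 ± 1.83 CPM per kb, with 22.3, 14.8 and 27.3 CPM across the Sharpin-cpdm libraries and 23.4, 15.1 and 23.5 CPM across the wild-type ones. The groups overlapped, and the library numbered 2 was the lowest of each. Hoxd9 (2.08 ± 0.722), Hoxd4 (1.86 ± 0.659) and Hoxd3 (0.662 ± 0.363 CPM per kb) were lower. Hoxd10, just outside the filter, had 2 to 20 counts per library, beside 3 to 17 counts for Hoxa6, the passing gene with the lowest mean CPM. Hoxd1, Hoxd11 and Hoxd12 had between 0 and 2 counts per library and Hoxd13, which shapes digits and genitalia, had 0 in all 6. Rows for non-coding RNAs of the clusters were also near 0. Hotair, the long non-coding RNA between Hoxc11 and Hoxc12, had 6 counts over the 6 libraries together, and of the 6 microRNA rows 3 had 0 counts, although a library of this kind does not capture mature microRNAs. In the other 4 non-Hox rows of the clusters, only Gm53, beside Hoxb9, passed the filter, at a mean of 1.02 CPM.

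**Figure D2:**
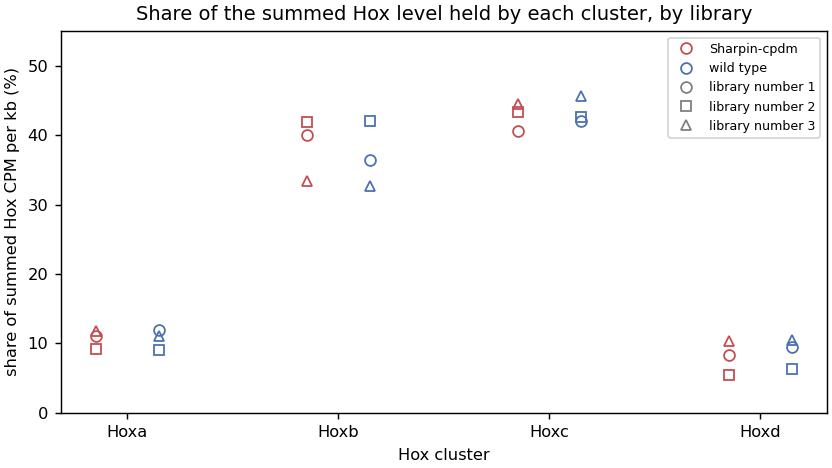
Share of the summed Hox CPM per kb held by each cluster in each library (points; colour gives the genotype and shape the library number). The genotypes overlap in every cluster, and the libraries numbered 2 hold the lowest Hoxd shares (5.49% and 6.33%).

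The comparison of Sharpin-cpdm with wild type asks whether loss of SHARPIN goes with a change in this pattern. No Hox gene passed the threshold (adjusted p under 0.05, quasi-likelihood test of edgeR, Benjamini-Hochberg adjustment over 13442 genes). Without further terms 0 of 29 Hox genes were called, as were 0% of all tested genes, and 1 Hox gene (Hoxc8) had an unadjusted p under 0.05, beside 2.28% of all. Sharpin itself, whose CPM did not overlap between the groups, was thus not called in this fit either. A count of 0 in it is therefore not evidence of no difference. With the library number as a block, which compares same-numbered libraries, 0 of 29 were called beside 2.51% of all genes (53 higher and 284 lower), and 5 (Hoxb9, Hoxc8, Hoxa4, Hoxa2 and Hoxc10) had an unadjusted p under 0.05, beside 17.3% of all. DESeq2 called 0 Hox genes with and without the block. Blocked log2 fold changes lay between -0.38 and 0.62, with a median of 0.03 against 0.00 for all tested genes, 15 above 0 and 14 below. Their median size was 0.17, against 0.10 for all tested genes. These sets were not matched for expression level, and blocked standard errors reached 0.53 for Hoxa6, at a mean of 0.742 CPM. For 25 of 29 genes the blocked 95% interval lay within 1 log2 unit of 0, and the other 4 (Hoxa2, Hoxa6, Hoxc11 and Hoxd3) had means below 2 CPM. Between genotypes the cluster shares overlapped, at 42.8% ± 1.96 and 43.4% ± 1.93 for Hoxc and 38.5% ± 4.43 and 37.1% ± 4.66 for Hoxb in Sharpin-cpdm and wild type (SD, n = 3). Central numbers held 63.7% ± 3.93 in Sharpin-cpdm and 62.8% ± 3.53 in wild type.

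**Figure D3:**
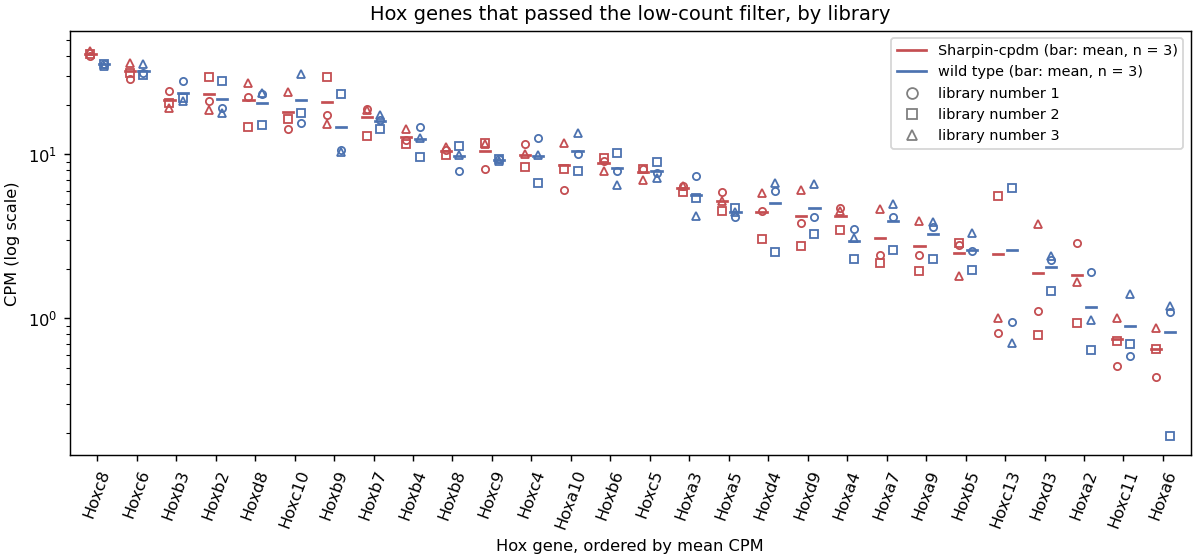
CPM of 28 of the 29 Hox genes that passed the low-count filter in each library, on a log axis (red, Sharpin-cpdm; blue, wild type; bars, means of n = 3; shape, library number). Only Hoxc8 has groups that do not overlap, and Hoxc13 spans the widest range.

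Hoxb9, a thoracic patterning gene with a known part in mammary growth, had the smallest p of the blocked comparison. It stood at 17.4, 29.7 and 15.3 CPM across the Sharpin-cpdm libraries and at 10.6, 23.3 and 10.4 CPM across the wild-type ones. The groups overlapped because the wild-type library numbered 2 stood above the Sharpin-cpdm libraries numbered 1 and 3. Both libraries numbered 2 were the highest of their genotype, and within each number the Sharpin-cpdm library was the higher. The log2 ratio of the genotypes was 0.48 ± 0.42 (SE, n = 3 libraries each, adjusted p = 1.00) without the block and 0.51 ± 0.10 with it, where the adjusted p of 0.0536 missed the threshold. With GC and length offsets added to the block the adjusted p was 0.0516, in DESeq2 with the block it was 0.11, and leaving out 1 pair gave 0.0587 to 0.213, at log2 fold changes of 0.43 to 0.61. Without the block, leaving out 1 library moved the value to between 0.10 (without the Sharpin-cpdm library numbered 2) and 1.00 (without the wild-type library numbered 2).

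Hoxc8 was the 1 Hox gene of 29 whose groups did not overlap, a property of 5.94% of all tested genes. Its means were 41.1 ± 1.74 CPM across the Sharpin-cpdm libraries and 35.4 ± 0.726 CPM in wild type (SD, n = 3). The log2 fold change was 0.20 ± 0.08 without the block and 0.20 ± 0.06 with it, with adjusted p of 1.00 and 0.143.

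Hoxa4 and Hoxa2 followed in order of p. Hoxa4 stood at 4.72, 3.48 and 4.48 CPM across the Sharpin-cpdm libraries and at 3.52, 2.30 and 3.09 CPM across the wild-type ones. Hoxa2, needed for the skeleton of the branchial arches, stood at 2.87, 0.942 and 1.67 CPM across the Sharpin-cpdm libraries and at 1.91, 0.639 and 0.984 CPM across the wild-type ones. In both genes every Sharpin-cpdm library exceeded the wild-type library of its number while the groups overlapped. Their blocked log2 fold changes were 0.50 ± 0.17 and 0.62 ± 0.24, with adjusted p of 0.202 and 0.268. Leaving out 1 library without the block moved Hoxa2 to between 0.16 (without the Sharpin-cpdm library numbered 1) and 1.14 (without the wild-type library numbered 1). Hoxc10 differed in the other direction, at 14.3, 16.5 and 24.0 CPM across the Sharpin-cpdm libraries and 15.5, 17.9 and 31.0 CPM across the wild-type ones. Its groups overlapped as well, and the blocked value of -0.23 ± 0.09 had an adjusted p of 0.279.

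For the remaining Hox genes the 95% interval of the blocked value included 0. Of all 29, 9 had the same sign in the 3 same-numbered pairs, beside 41.2% of all tested genes: Hoxa2, Hoxa4, Hoxb2, Hoxb9 and Hoxc8 were higher in each Sharpin-cpdm library than in its numbered wild-type library, and Hoxa7, Hoxb3, Hoxc10 and Hoxd9 lower. In the Hoxa cluster the blocked values changed sign along the cluster, a pattern chosen after seeing the values and not tested. They were above 0 for Hoxa2, Hoxa3 (0.15 ± 0.18), Hoxa4 and Hoxa5 (0.21 ± 0.17), and below 0 for Hoxa6 (-0.29 ± 0.53), Hoxa7 (-0.38 ± 0.20), Hoxa9 (-0.25 ± 0.20) and Hoxa10 (-0.30 ± 0.16). The signs of Hoxa3 and Hoxa6 turned when single libraries were left out. In Hoxb, Hoxb2, Hoxb4, Hoxb6, Hoxb7 and Hoxb8 lay between 0.04 and 0.11, Hoxb3 at -0.16 ± 0.07 and Hoxb5 at -0.08 ± 0.31. In Hoxc, Hoxc4 stood at 0.04 ± 0.13, Hoxc5 at -0.04 ± 0.12, Hoxc6 at -0.02 ± 0.06, Hoxc9 at 0.15 ± 0.14, Hoxc11 at -0.26 ± 0.32 and Hoxc13 at -0.04 ± 0.23. In Hoxd, Hoxd8 stood at 0.03 ± 0.08, Hoxd3 at -0.24 ± 0.38, Hoxd4 at -0.17 ± 0.18 and Hoxd9 at -0.18 ± 0.15.

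**Figure D4:**
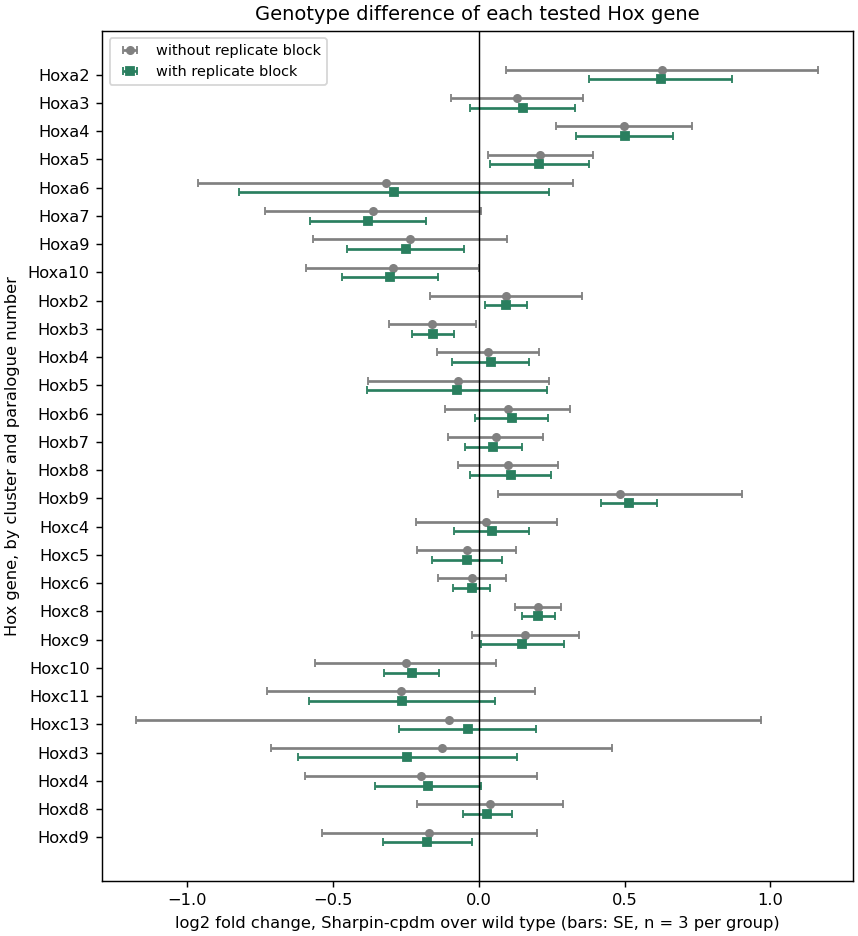
Log2 fold change of Sharpin-cpdm over wild type for 28 of the 29 tested Hox genes without (grey circles) and with (green squares) the library number as a block; bars are standard errors. The estimates of both fits nearly coincide, and the bars are shorter with the block for most genes.

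Hox levels also differed between library numbers. In a test of the number with genotype in the model, added after seeing the data, 10 of 29 Hox genes passed an adjusted p of 0.05 in edgeR, beside 37.2% of all tested genes, so the share was near that of other genes. The test takes all numbers together. Each adjusted p below is thus that of any difference between numbers, not of the ratio printed with it. The ratios were picked after seeing the values. For 20 of 29, both libraries of 1 number stood above or below all other 4 libraries, beside 70.7% of all. Hoxc13 had the largest ratio, with a mean of 5.89 CPM in the libraries numbered 2 and 0.868 CPM in the other 4, a ratio of 6.79 (adjusted p = 9.95e-04). Hoxb9 was 1.97 times and Hoxb2 1.5 times as high in the libraries numbered 2 as in the others (adjusted p of 0.00158 and 0.00319), whereas Hoxd8, Hoxd4 and Hoxd9 were lower there, at ratios of 0.620, 0.487 and 0.583 (adjusted p of 0.00707, 0.0246 and 0.0151). Hoxc10 was higher in the libraries numbered 3 than in the other 4, at a ratio of 1.71 (adjusted p = 0.00435), as was Hoxa7 at 1.69 (adjusted p = 0.0493). Hoxa2 was highest in the libraries numbered 1, at a ratio of 2.26 (adjusted p = 0.0219), and so was Hoxb3, at 1.26 (adjusted p = 0.0373). By cluster, Hoxb held 41.9% and 42.0% of the summed level per kb in the libraries numbered 2 and 32.7% to 40.0% in the others, and Hoxd 5.49% and 6.33% against 8.35% to 10.5%.

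Some markers of other cell types differed between the numbers too. The summed level of 10 pericyte and smooth muscle markers was 6911 CPM in the Sharpin-cpdm and 6323 CPM in the wild-type library numbered 2, and 2352 to 4078 CPM in the others, but Acta2 alone made up 5689 and 5035 CPM of the former. Without Acta2 the sum was 1222 and 1289 CPM in the libraries numbered 2 and 801 to 1270 CPM in the others. Of the 10, the smooth muscle genes Acta2, Cnn1 and Myh11 and the pericyte gene Cspg4 stood above all others in both libraries numbered 2, Abcc9 stood below all others there, and the other 5 overlapped. The sum of 10 macrophage and leukocyte markers was 329 and 386 CPM in the libraries numbered 2 and 69.1 to 225 CPM in the others. Lyz2 alone made up 263 and 295 CPM of the former. Without Lyz2 the sums overlapped, at 65.9 and 91.2 CPM in the libraries numbered 2 and 22.7 to 66.3 CPM in the others. The lymphocyte genes Cd3e and Cd79a had means below 0.1 CPM. Of the 7 tested, 3 stood above all other libraries in both numbered 2. Beside the 37.2% of all genes, the number test was passed by 10 of 10 tested pericyte and smooth muscle, 7 of 7 macrophage and leukocyte, 12 of 12 endothelial, 9 of 12 fibroblast, 3 of 4 adipocyte, 4 of 8 Schwann cell, 4 of 8 skeletal muscle and 3 of 11 epithelial markers. Their part in the Hox levels was not tested.

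**Figure D5:**
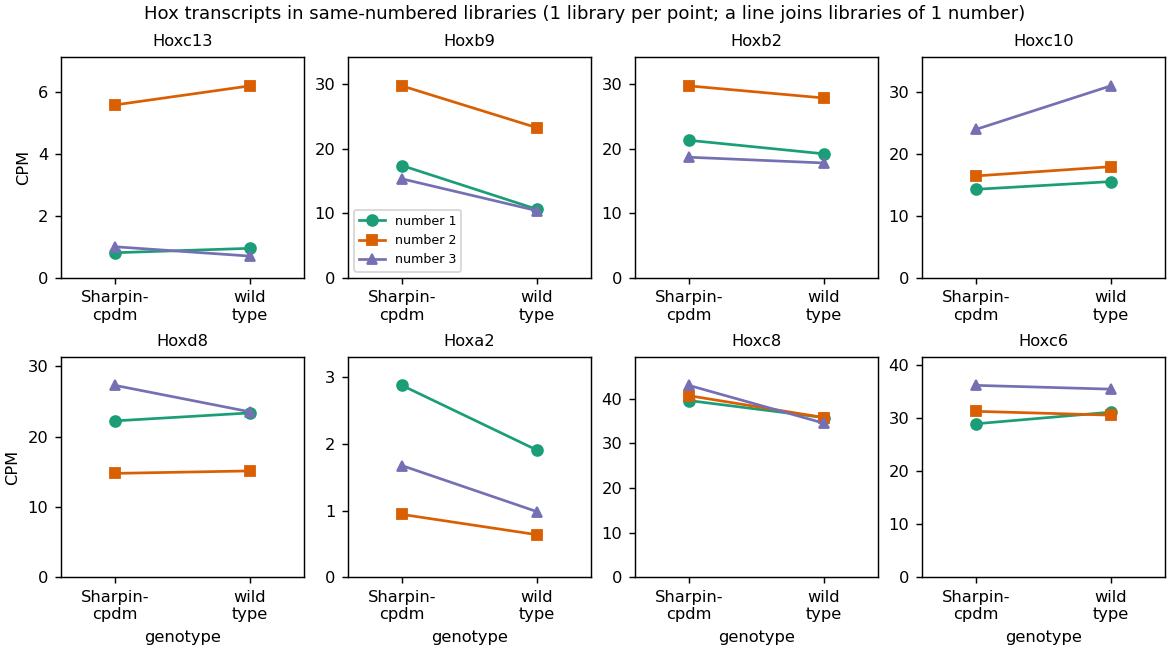
CPM of 8 Hox genes in each library, by genotype, with a line joining the libraries of 1 number (axes start at 0). Hoxc13, Hoxb9 and Hoxb2 stand highest in both libraries numbered 2 and Hoxc10 in both numbered 3, while Hoxc8 is at 34.5 to 43.0 CPM throughout.

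Genes that act with or upstream of Hox genes were read from the same fits. Without the block, 0 genes of any list were called. Of 9 tested Hox cofactors, the PBX and MEIS proteins that bind DNA with HOX proteins and their partners, 0 passed with the block, and the most abundant was Pbxip1 (mean 364.5 CPM), with a blocked log2 fold change of -0.05 ± 0.05. Of 29 Polycomb genes, which keep Hox genes silent, 0 passed, with Rbbp4 at 0.05 ± 0.04 and Rbbp7 at 0.08 ± 0.04. Ezh2 had the smallest blocked p of these, at 0.28 ± 0.05, and narrowly missed the threshold (adjusted p = 0.0558). Of 16 Trithorax and H3K27 demethylase genes, which counter Polycomb, 0 passed, with Hcfc1 at 0.10 ± 0.06 and Mllt1 at 0.07 ± 0.05. The median blocked values of these lists were -0.01, 0.00 and -0.02, beside 0.00 for all tested genes. Of 16 tested genes of the retinoic acid pathway, whose ligand switches on anterior Hox genes in the embryo, 1 rose and 1 fell with the block. Aldh1a1, which makes retinoic acid, fell, with a log2 fold change of -1.04 ± 0.12 (adjusted p = 0.0136), and 0 of the 16 passed without pair 3. Of 22 tested regional transcription factors other than Hox, 0 passed with the block. Tbx5 narrowly missed the threshold, at a blocked log2 fold change of -1.14 ± 0.22 (adjusted p = 0.0566), and was called lower without pair 1. Tbx15, a marker of trunk and limb mesenchyme, was the most abundant at 137 CPM, followed by Emx2 at 35.0 CPM.

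Marker lists of other cells were compared between genotypes in the same way. Beside the 0 called Hox genes, 10 of 12 endothelial markers fell with the block (median -0.77), among them Tek at -0.81 ± 0.07, Cldn5 at -1.01 ± 0.09 and Pecam1 at -0.82 ± 0.08. Without pair 1, 2 or 3, 10, 7 and 1 of them were called lower, with medians of -0.88, -0.74 and -0.67. Of 12 fibroblast markers 3 fell (Lum, Fap and Dcn), of 10 pericyte and smooth muscle markers 3 fell and 1 rose, and of 4 tested adipocyte markers 2 fell (Fabp4 and Lpl), while Lep and Retn had 0 counts throughout. Of 8 Schwann cell markers 1 rose. Without pair 3 the calls in these lists came to 2 fibroblast, 0 pericyte and smooth muscle, 1 adipocyte and 0 Schwann cell markers. Without pair 1, 4 fibroblast markers fell and 1 rose, and 6 pericyte and smooth muscle markers fell and 1 rose. With all pairs in the fit, none of 11 tested epithelial, 7 macrophage and leukocyte or 8 skeletal muscle markers passed. Without pair 1, 8 of the 11 epithelial markers were called lower, with a median of -0.715 against -0.331 with all pairs. Without pair 2 or 3, 0 epithelial markers were called. In the skeletal muscle list, 1 marker was called higher without pair 1. Summed endothelial markers came to 525 to 773 CPM in the Sharpin-cpdm and 687 to 1205 CPM in the wild-type libraries, and the part of these cells in the Hox levels was not tested.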

How the data were processed

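The deposited tables, 1 for each library, hold whole-read counts by gene symbol, and the 5 summary rows of the counting program (48.8% to 51.2% of entries) were left out. The submitters' processing notes name HTSeq 0.5.4p3, TopHat2 2.0.10, bcl2fastq 1.8.4 and the mm10 build, and the labels' protocols the TruSeq RNA v2 kit. The annotation, the read length and how counting treated strand and overlaps are not given in the sources used here. Members, lists and tests were chosen with earlier results of these data known.

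Counts were tested in R 4.3.3 with edgeR 4.0.16 (filterByExpr, TMM factors of 0.969 to 1.03, quasi-likelihood F-test, two-sided, Benjamini-Hochberg over 13442 genes). DESeq2 1.42.0 was an alternative. CPM values use gene counts without TMM. The replicates are separate pools of mice. Lengths and homeoboxes came from GENCODE vM21 (GRCm38, the same assembly as mm10) in Python 3.11.15, using the transcripts that match RefSeq, and 98.9% of tested genes had a model.

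Deviations from group means, correlated across genes, gave 0.457, 0.809 and 0.737 for same-numbered libraries 1, 2 and 3 and -0.691 to 0.00677 for other combinations. The deviations of a group cancel out for each gene, so positive values for same-numbered libraries push those of other combinations down. The other combinations are therefore not separate evidence. Libraries were treated as paired by number. This rests on the data, as the labels do not say it. The main fit has no block and the fit with the block is printed beside it.

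Tested Hox genes are named with their values, and a few genes that the rule takes are not reported here. The 8 with the highest mean CPM per kb, those whose groups did not overlap and the 4 with the smallest blocked p have every library's value. From other lists the rule takes the 2 most abundant members and up to 3 called ones. Ezh2 and Tbx5 were added after seeing the values.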

Additional observations from a re-analysis of the deposited data

How the results depend on the processing

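No Hox gene passed in any of the 16 alternatives (the replicate block, DESeq2 with and without it, no TMM factors, no count filter or a stricter one, GC and length offsets with the block, and each library or pair left out), where Hoxc11 and Hoxa6 passed the count filter in 12 and 14 of them. The log2 fold changes kept their sign in all 16 for 11 of the 27 other genes, and Hoxc11 kept its sign in its 12. Settings with no TMM factors, no count filter or a stricter one, or a single library left out called 0 of all tested genes. Their count of 0 Hox genes is therefore not separate evidence of no difference. Over all genes 0 were called without the replicate block, 337 with it, 10 by DESeq2, 341 by DESeq2 with the replicate block and 372 with GC and length offsets, and leaving out libraries or pairs gave 0 to 653 (653, 128 and 44 without pairs 1, 2 and 3 under the block). For the other lists the counts were 0, 22 with the replicate block, 26 by DESeq2 with it, 23 with the offsets, 0 with single libraries left out without the block, and 39, 15 and 4 without pairs 1, 2 and 3 under the block, so 0 to 39 in all. On CPM without length Hoxc held 39.99% and Hoxd 10.81% of the Hox total. Signs turned only with libraries or pairs left out, except for Hoxc13, which also turned, to 0.0075, in DESeq2 with the replicate block. With libraries or pairs left out, the lowest and highest log2 fold changes were -0.042 and 0.34 for Hoxa3, -0.83 and 0.16 for Hoxa6, -0.15 and 0.34 for Hoxb2, -0.11 and 0.20 for Hoxb4, -0.39 and 0.34 for Hoxb5, -0.047 and 0.31 for Hoxb6, -0.031 and 0.19 for Hoxb7, -0.037 and 0.26 for Hoxb8, -0.48 and 0.11 for Hoxc10, -1.58 and 1.59 for Hoxc13, -0.17 and 0.24 for Hoxc4, -0.11 and 0.069 for Hoxc5, -0.10 and 0.054 for Hoxc6, -1.09 and 0.22 for Hoxd3, -0.51 and 0.054 for Hoxd4, -0.16 and 0.23 for Hoxd8 and -0.50 and 0.16 for Hoxd9. Depth limits the 10 Hox genes below the filter and those near 1 CPM, and 3 libraries per group and the unexplained library numbers limit the rest. The cause of these shifts was not tested.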
